A study of Mus musculus with 8 samples.

Results

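The 8 tumor libraries fell on both sides of a simple measure, the share of all counts taken by mt-Rnr1 and mt-Rnr2, the ribosomal RNAs of mitochondria. The classes were selected on this measured share: the 3 libraries with a share under 5% (2L, 4a and 6) are called low-share here, and the 5 libraries at or above 5% (1, 2R, 3, 4b and 5) are called high-share. All 8 tumors carried the same genotype, HprtCre with Ewsr1-loxP and Atf1-loxP: Cre recombinase was expressed from the Hprt locus, and loxP sites stood in Ewsr1, which encodes an RNA-binding protein, and in Atf1, which encodes a CREB-family transcription factor. The tumors were taken at morbidity from the primary site, snap frozen and never exposed to a drug, and total RNA was sequenced after RiboZero depletion of ribosomal RNA. No normal tissue was analysed here, and the animals' ages, the meaning of the title numbers and of the suffixes L, R, a and b, and whether each tumor came from its own animal are not given in the labels. The split thus comes from measured values and not from the study's design, and every p-value measures only the spread between these 8 libraries.

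Mitochondria carry their own small genome, which is transcribed as long precursors and cut into the ribosomal RNAs, messenger RNAs and transfer RNAs of the organelle. mt-Rnr1 and mt-Rnr2 form the core of the mitochondrial ribosome, which makes the few respiratory chain subunits encoded there, while all other subunits and all mitochondrial ribosomal proteins come from nuclear genes. A library made after ribosomal RNA depletion holds messenger RNA and also RNA without a poly(A) tail, among it small nucleolar RNAs (guides for ribosomal RNA modification), small Cajal body RNAs (guides for spliceosomal RNA modification), spliceosomal RNAs, RNA polymerase III transcripts and RNA retained in the nucleus.

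The low-share libraries were the deepest. They held 18435263 to 19682149 counts, and the high-share libraries held 4817902 to 11263352, so depth and share cannot be told apart. After mitochondrial genes, Gm26917, Gm42418 and Gm23935 were set aside (40 genes), 17406306 to 19112876 counts remained in the low-share libraries and 1267215 to 9733891 in the high-share libraries. Library 3 was by far the thinnest at 1267215, where 3 counts correspond to 2.24 CPM. CPM stands for counts per 1e+06 of these remaining counts after scaling by TMM factors (a trimmed mean correction for composition), which ran from 0.880 to 1.13. The engineered loci overlapped between the classes: Ewsr1 stood at 71.0 to 114 CPM in the low-share and 108 to 173 CPM in the high-share libraries, and Atf1 at 29.1 to 43.02 CPM and 29.7 to 46.3 CPM. Of Ewsr1, Atf1 and Hprt, 0 separated, but this depended on the setting. With no TMM factors 1 of the 3 was higher in all high-share libraries (33.3% beside 5.83% of all genes). With libraries thinned to the depth of library 3, or without 3 or 4a, 1 was as well (beside 4.22%, 6.49% and 9.53%). Counts per gene do not show the rearrangement. Over all 8 libraries Mitf, a melanocyte transcription factor, stood at 41.6 to 183 CPM, while Pmel, a pigment granule protein, reached only 2.82 CPM. Skeletal muscle genes were present mainly in libraries 2L and 3, where the giant muscle protein gene Ttn stood at 16559 and 7215 CPM against at most 115 CPM elsewhere. These 2 libraries lie on opposite sides of the split.

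The values that defined the split are given as a description. mt-Rnr1 and mt-Rnr2 together took 0.877% of all counts in 2L, 0.982% in 6 and 2.90% in 4a. They took 8.27% in 4b, 14.95% in 1, 15.09% in 3, 18.03% in 5 and 24.7% in 2R. The values nearest to the threshold were thus those of 4a and 4b, libraries that share a title number, and no library lay between 2.90% and 8.27%. mt-Rnr2 (chrM:1094-2675) outnumbered mt-Rnr1 (chrM:70-1024) in every library, by 3.25-fold in 3 up to 15.1-fold in 6. The ratio was 10.1 to 15.1 in the low-share libraries and 3.25 to 11.5 in the high-share libraries, so the classes overlapped.

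**Figure D1:**
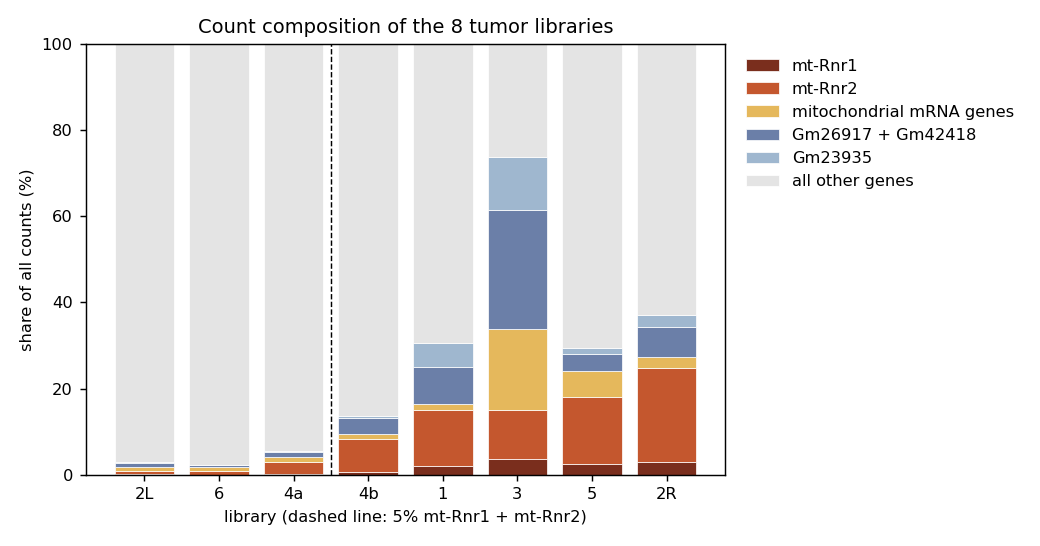
Share of all counts (%, bars stacked to 100) taken by mt-Rnr1, mt-Rnr2, the mitochondrial mRNA genes, Gm26917 with Gm42418, Gm23935 and all other genes in each of the 8 libraries, ordered by the mt-Rnr1 plus mt-Rnr2 share within each class; the dashed line separates the 3 libraries under 5% from the 5 others. All other genes fill 94.4% or more of each low-share library and only 26.3% of library 3.

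Mitochondrial messenger RNA did not follow the ribosomal RNA in a fixed ratio. Its share of all counts was 0.827% to 1.15% in the low-share libraries, 1.27% in 4b, 1.38% in 1, 2.62% in 2R, 6.01% in 5 and 18.7% in 3. The ratio of ribosomal to messenger RNA from the same genome was 0.899 in 2L, 1.19 in 6 and 2.52 in 4a, against 0.805 in 3, 2.999 in 5, 6.51 in 4b, 9.43 in 2R and 10.8 in 1. Library 3 therefore had the lowest ratio of all 8 in spite of a ribosomal share of 15.09%. mt-Co1, which encodes the catalytic subunit of cytochrome c oxidase, stood at 6555, 6647 and 6681 CPM in the low-share libraries 2L, 6 and 4a. In the high-share libraries it stood at 5614.5 in 4b, 10731 in 1, 24376 in 2R, 32095 in 5 and 306827 in 3, so 4b lay below all 3 low-share libraries. mt-Nd6, the one messenger RNA encoded on the opposite strand, overlapped too: 9.38, 42.7 and 47.5 CPM in the low-share libraries and 23.7 to 424 CPM in the others. mt-Co2, mt-Atp6, mt-Atp8, mt-Nd3 and mt-Nd4l are listed at 0 in every library, so mitochondrial messenger RNA here means the remaining genes.

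The other abundant RNAs set aside were also more abundant in the high-share libraries. Gm26917 and Gm42418 lie next to each other on chr17, where mm10 carries a copy of the ribosomal RNA precursor, and together took 0.507% to 1.25% of all counts in the low-share libraries and 3.61% to 27.6% in the high-share libraries. Gm23935 (chr16:11144125-11144181) took 0.0436% to 0.283% in the former and 0.429% to 12.3% in the latter. Library 3 was highest for both, although the mitochondrial ribosomal share was higher in 5 and 2R.

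No nuclear gene passed the test across all genes. Of 16017 genes with a mean of at least 1 CPM, edgeR's quasi-likelihood test called 0 at an adjusted p under 0.05 (0% of the genes tested), and the smallest adjusted p was 0.5257. At an unadjusted p under 0.05 there were 864 genes with a higher and 634 with a lower level in the high-share libraries (5.39% and 3.96%), 1498 in all, where 801 would have such a p if nothing differed. DESeq2, run as an alternative, called 215 genes, 161 higher and 54 lower (1.005% and 0.337% of the genes tested). Of 42 tested small nucleolar RNAs it called 22, all of them higher (52.4% beside 1.005%). Only 24 of the 42 reached a mean of 1 CPM in the low-share libraries alone, so this share does not stand for the whole class. A gene is counted below as higher in all 5 when its lowest high-share library exceeded its highest low-share library, and as lower in all 5 in the opposite case. Of all genes tested, 802 were higher in all 5 (5.01%) and 593 lower in all 5 (3.7%), and the counts of gene groups are to be read against these percentages. The median difference over all genes was 0.02 on the log2 scale.

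RNA classes differed more plainly than single genes. Of 22 classes tested as a share of the remaining counts, 11 did not overlap between the low-share and high-share libraries, 10 higher and 1 lower. Each of these reached the smallest p that the two-sided exact permutation test of 3 against 5 libraries allows, 0.0357, which is 0.0714 after Benjamini-Hochberg adjustment over the classes, so 0 of the 22 passed an adjusted threshold of 0.05. Small nucleolar RNAs took 0.0312% in 2L, 0.0279% in 6 and 0.0362% in 4a. Their share was 0.0864% in 5, 0.0986% in 4b, 0.101% in 2R, 0.113% in 1 and 0.223% in 3, a mean of 0.124% ± 0.0561 (SD, n = 5) against 0.0318% ± 0.00417 (SD, n = 3), or 3.92-fold. In the ratio of the class means, small Cajal body RNAs stood at 3.14-fold. Spliceosomal and related small nuclear RNAs stood at 4.55-fold and long intergenic RNAs at 2.73-fold. Single genes weighed heavily: Gm22456 made up 64.2% of the small nuclear class and Malat1 68.1% of the long intergenic class. Malat1 overlapped, and Pvt1 stood at 10451 CPM in library 3 against 9.24 to 46.8 CPM elsewhere. Of 225 tested long intergenic genes, 13 were higher in all 5 (5.78% beside 5.01%). Some gaps were narrow: the highest low-share and lowest high-share values were 0.202% and 0.203% for processed transcripts. They were 0.0156% and 0.0157% for bidirectional promoter RNAs and 0.119% and 0.125% for antisense RNAs. Gm15564, an antisense gene, stood at 1073 CPM in 3 against 0.240 to 50.9 CPM elsewhere. The direction depends on the denominator for 3 of the 11 classes that did not overlap. As a share of all counts, antisense, bidirectional promoter and processed transcript RNAs were lower on average in the high-share libraries. By that denominator small Cajal body, long intergenic and ribozyme RNAs overlapped (adjusted p = 0.196, 0.458 and 0.561, exact permutation test), and small nucleolar, small nuclear, miRNA, rRNA and protein-coding genes did not overlap (adjusted p = 0.112, exact permutation test). Protein-coding genes took 92.6% to 96.7% of the remaining counts in the low-share libraries and 85.3% to 91.4% in the high-share libraries.

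The ribozyme class, which is almost wholly Rmrp and Rpph1 (the RNA subunits of RNase MRP and RNase P), took 0.928% in 2L, 0.953% in 6 and 2.23% in 4a. It took 2.35% in 1, 2.44% in 2R, 3.23% in 3, 4.61% in 4b and 5.17% in 5, so 4a and 1 were separated by a narrow gap. Each of the pair overlapped as a single gene: Rmrp stood at 5416 CPM in 4a and 3309 CPM in 3, and Rpph1 at 17067 CPM in 4a and 13682 CPM in 1. With and without TMM factors, 0 of the 4 tested genes of the class were higher in all 5 (beside 5.01% and 5.83%). Without 4a, all 4 tested genes of the class were higher in all 5 high-share libraries (beside 9.53% of all genes). The classes that overlapped included the heterogeneous misc_RNA class (p = 0.25, exact permutation test), replication-dependent histone genes (p = 0.429, exact permutation test) and cytosolic ribosomal protein genes (p = 0.393, exact permutation test). Histone messenger RNA lacks a poly(A) tail and is retained in a library of this type; its share was 0.121% ± 0.0234 (SD, n = 3) in the low-share and 0.154% ± 0.0600 (SD, n = 5) in the high-share libraries.

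**Figure D2:**
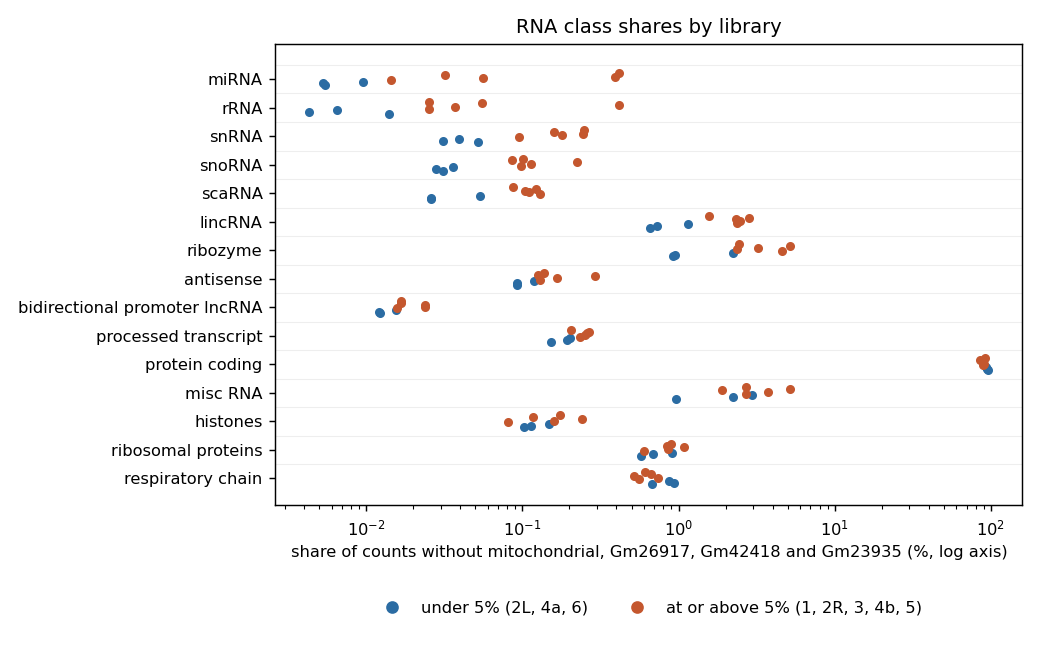
Share of the remaining counts (%, log axis) of 15 annotated RNA classes or gene groups, 1 point per library, blue for the 3 libraries under 5% and orange for the 5 others. The upper 11 classes do not overlap between the colors, protein-coding genes being lower and the others higher in the orange libraries; the lower 4 overlap.

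Small nucleolar RNA was a class in which the single genes shared 1 direction. The table lists 1507 such genes, of which 286 had any count and 42 passed the filter. Only 24 of the 42 reached a mean of 1 CPM in the low-share libraries alone. The others passed through the libraries where they are high, so counts and medians over the 42 do not stand for the whole class. All 42 had a positive log2 difference, with a median of 1.99 beside 0.02 over all genes, and 31 were higher in all 5 high-share libraries (73.8% beside 5.01%). With the filter applied to the low-share libraries alone, 19 of 24 were (79.2% beside 4.58%). The count was 31 to 37 with any 1 library left out, and with every library thinned to the depth of library 3 it was 18 of 42 (42.9% beside 4.22%). Both pairs of libraries with a shared title number showed the same direction: 42 of 42 were higher in 2R than in 2L, and 40 of 42 were higher in 4b than in 4a. None of the 42 shared 10% or more of its 18-base words with a mitochondrial RNA, Gm26917, Gm42418 or Gm23935.

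3 small nucleolar RNAs among the 12 higher genes of smallest p are shown, and they represent both families. Snord15a (chr7:99482785-99482932, minus strand) is of the C/D type, named for short conserved boxes near the ends. Snora23 (chr7:110046364-110046547, plus strand) and Snora57 (chr19:8888538-8888685, minus strand) are of the H/ACA type, which ends in an ACA box. The sequences are the GENCODE M21 transcripts on build mm10, written 5′ to 3′ as DNA, with capitals for the motif TGATGA and the last CTGA in Snord15a and for the ACA at 3 bases from the 3′ end in the others:
Snord15a: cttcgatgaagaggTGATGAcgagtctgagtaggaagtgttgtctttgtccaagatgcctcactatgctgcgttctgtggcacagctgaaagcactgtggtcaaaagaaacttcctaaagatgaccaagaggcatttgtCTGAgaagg
Snora23: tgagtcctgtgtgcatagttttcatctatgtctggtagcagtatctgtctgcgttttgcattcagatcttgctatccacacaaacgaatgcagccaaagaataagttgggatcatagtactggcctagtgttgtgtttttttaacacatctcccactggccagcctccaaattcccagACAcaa
Snora57: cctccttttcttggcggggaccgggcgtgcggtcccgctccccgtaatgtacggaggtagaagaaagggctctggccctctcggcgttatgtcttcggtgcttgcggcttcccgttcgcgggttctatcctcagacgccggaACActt

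Searched on the transcript's own strand, TGATGA followed anywhere by CTGA was found in 13 of the 42 tested small nucleolar RNAs (31.0%) and ACA at 3 bases from the 3′ end in 26 (61.9%). Among all 1507 annotated the shares were 24.0% and 18.3%, and among 3887 other annotated small RNAs of 60 to 300 bases they were 0.515% and 2.32%. Of the 31 that were higher in all 5 high-share libraries, 8 held the first and 21 the second, and of the 11 that overlapped, 5 held each. Both families were therefore found on both sides of this count.

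Snord15a stood at 2.64, 4.22 and 5.81 CPM in the low-share libraries 6, 4a and 2L. In the high-share libraries it stood at 26.9 CPM in 5, 27.7 in 4b, 36.2 in 1, 44.3 in 2R and 170.3 in 3. No high-share library came near the low-share range, and the log2 difference was 3.83 ± 0.79 (SE; unadjusted p = 0.00108, edgeR). Snora23 stood at 3.12, 4.28 and 10.02 CPM against 19.5 to 66.5 CPM, a log2 difference of 2.65 ± 0.55 (SE). Snora57 stood at 0.587 to 0.810 CPM against 2.76 to 14.2 CPM, a log2 difference of 3.18 ± 0.66 (SE). It thus passed the filter only through the high-share libraries.

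The more abundant members had smaller differences. Snord17 stood at 74.9, 133 and 146 CPM in the low-share libraries and at 285 to 838 CPM in the others. Snora73b, an H/ACA-type RNA of unusual length, stood at 63.6, 77.5 and 145 CPM and at 179 to 335 CPM. Snord118, the U8 RNA needed for maturation of the large subunit ribosomal RNAs, stood at 0.480, 1.07 and 3.99 CPM and at 6.22 to 32.1 CPM; it was chosen after its values were seen. Relative to each gene's mean over the 8 libraries, the median over the 42 genes was 1.64 (log2) in library 3, against 0.30 to 0.64 in the other 4 high-share libraries and -0.75 to -1.17 in the low-share libraries. The lowest high-share median thus exceeded the highest low-share median by more than the spread among the low-share libraries. The filter admitted part of the 42 genes through the high-share libraries, so this gap is a description.

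**Figure D3:**
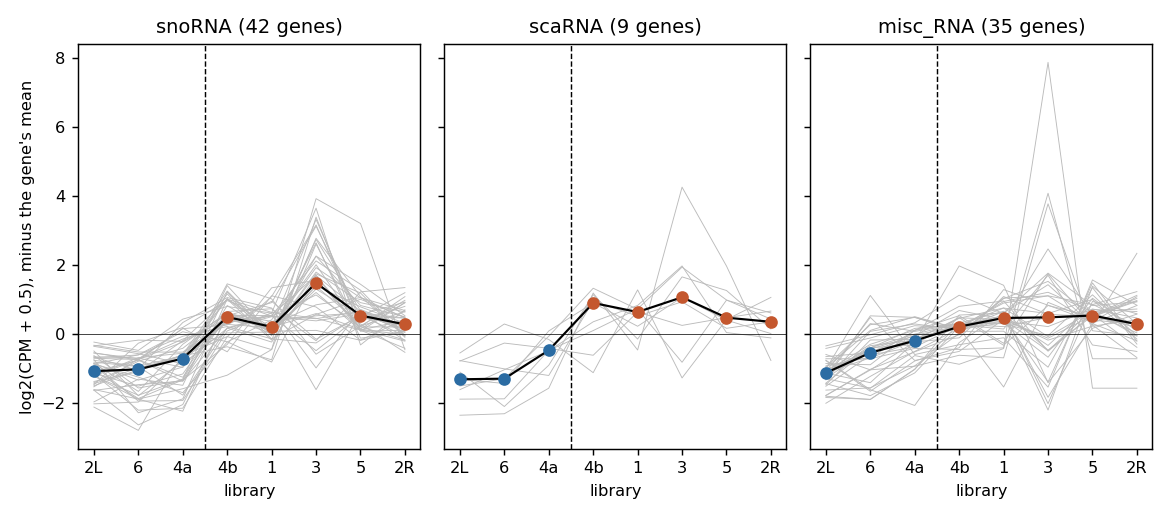
log2(CPM + 0.5) minus the gene's mean over the 8 libraries, for the tested genes of the small nucleolar, small Cajal body and misc_RNA classes; gray lines are genes, points and the black line are medians, blue for the libraries under 5% and orange for the others. The medians of all 3 classes lie under 0 in 2L, 6 and 4a and above 0 in the 5 other libraries.

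Small Cajal body RNAs mostly stood higher too, while the small nuclear RNA medians of the classes overlapped. All 9 tested small Cajal body RNAs had positive differences (median 1.82), and 5 were higher in all 5 (55.6%); with the filter on the low-share libraries alone, 3 of 7 were (42.9% beside 4.58%). Gm22009, the most abundant, stood at 119, 138 and 325 CPM in 2L, 6 and 4a and at 520 to 855 CPM in 2R, 1, 5 and 4b, but at 193 CPM in 3, so it overlapped. Of 20 small nuclear RNA genes, 17 had positive differences (median 1.22) and 5 were higher in all 5 (25%), 8 without library 2L (40% beside 8.55%) and 8 without 4a (40% beside 9.53%). With the filter on the low-share libraries alone, 3 of 14 were (21.4% beside 4.58%). The median of these genes relative to their means was -0.06 in library 3, below the -0.03 of 4a. Gm22456 stood out by level: 186, 200.5 and 258 CPM in the low-share libraries against 638 CPM in 4b, 854 in 5, 1114 in 1, 1288 in 2R and 2073 in 3, a log2 difference of 2.47 ± 0.46 (SE; unadjusted p = 0.000494, edgeR). Its transcript (chr11:94919709-94919833, plus strand, GENCODE M21) is shown because most of it matches U1 RNA, which recognises 5′ splice sites; capitals mark the 90 of 125 bases that lie in 18-base runs found in Rnu1a1 on either strand:
Gm22456: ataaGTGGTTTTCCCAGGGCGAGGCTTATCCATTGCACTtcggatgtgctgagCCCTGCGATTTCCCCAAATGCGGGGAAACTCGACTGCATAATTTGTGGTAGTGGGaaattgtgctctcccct

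How the authors' counting placed reads that match several U1 copies is not stated, so the level of any one copy is uncertain. Of 5 tested genes with 10% or more of their 18-base words in Rnu1a1, 2 were higher in all 5, and all 5 had log2 differences between 1.03 and 2.47.

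A gene that shares sequence with 7SL RNA gave the smallest p-value of the whole table. 7SL RNA is the scaffold of the signal recognition particle, which targets nascent proteins to the endoplasmic reticulum. All 7 tested genes with 10% or more of their 18-base words in Rn7s1, a 7SL gene, were higher in all 5 high-share libraries. They shared 11.4% to 42.1% of their words with it, and their log2 differences were 1.54 to 2.59. How reads that match several of them were placed is not stated, so the 7 may not be separate observations. Gm26461 stood at 9.90, 12.7 and 15.9 CPM in 6, 2L and 4a, then at 41.2 in 4b, 64.4 in 5, 66.4 in 1, 76.9 in 3 and 83.8 in 2R. The log2 difference was 2.37 ± 0.31 (SE; unadjusted p = 3.95e-05, adjusted p = 0.5257, edgeR), and its Pearson correlation with the log2 share over the 8 libraries, 0.980, was the highest among genes with a mean of at least 10 CPM; it is a description, since the share chose the classes.

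Copies of 7SK RNA, which restrains transcription elongation, did not separate as cleanly: 1 of 8 was higher in all 5, with log2 differences of 0.66 to 1.06, and Rn7sk itself stood at 9064 to 27887 CPM in the low-share and 14293 to 46838 CPM in the high-share libraries. Over the whole misc_RNA class, 12 of 35 tested genes were higher in all 5 (34.3%), and 20 were without library 4a (57.1% beside 9.53%). Vaultrc5, the vault particle RNA, stood at 2.84, 4.08 and 7.78 CPM in the low-share libraries and at 11.3 to 70.6 CPM in the others.

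Long RNAs held in the nucleus mostly overlapped. Of 13 tested members of a list of nuclear-retained noncoding RNAs, 12 had positive differences (median 0.70) and 1 was higher in all 5 (7.69%), a share close to that of all genes; 3 were without 4a or without 4b (23.1% beside 9.53% and 6.78%). That one was Neat1, the scaffold of paraspeckles, at 331, 340 and 697 CPM in 6, 2L and 4a and at 718 CPM in 3, 757 in 2R, 1543 in 4b, 1990 in 1 and 2000 in 5. The gap between 4a and 3 was narrow. Malat1, a nuclear speckle RNA, stood at 4301, 5347 and 7714 CPM in the low-share libraries and at 6883 CPM in 3 and 12187 to 22365 CPM in the other 4, so only library 3 overlapped. Firre, an X-linked nuclear RNA, stood at 13.7 to 26.97 CPM against 52.2 to 86.2 CPM, a log2 difference of 1.73 ± 0.31 (SE). Host genes of small nucleolar RNAs had 4 of 15 members higher in all 5 (26.7%): Snhg12, Snhg15, Snhg17 and Snhg20. Without 4a there were 10 (66.7% beside 9.53%), and with thinned counts 2 (13.3% beside 4.22%). Gas5, the most abundant host gene, overlapped, at 63.7 to 91.7 CPM and 84.5 to 184 CPM. Snhg17 stood at 8.64 to 14.4 CPM in the low-share libraries and at 14.6 to 118 CPM in the others, with 2R just above the low-share range.

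Genes annotated as miRNA and rRNA had the largest ratios of class means, 26.7-fold and 13.6-fold, and rested on few genes and few libraries. CT010467.1 made up 97.7% of the rRNA class, and it shares 67.0% of its 18-base words with the excluded Gm42418. Libraries of this kind record reads at precursor loci and not mature miRNA. Whether these reads came from miRNA precursors was not tested. In the miRNA class, 5 of 14 tested genes were higher in all 5 (35.7%), 8 without 4a and 10 without 4b (57.1% beside 9.53% and 71.4% beside 6.78%). Of the 14, 11 passed the filter only through the high-share libraries, so these shares support nothing about the class; with the filter on the low-share libraries alone, 1 of 3 was higher in all 5 (33.3% beside 4.58%). Mir6236 (chr9:110281287-110281409) made up 83.0% of the class: 1.62, 19.0 and 23.4 CPM in 6, 2L and 4a against 26.96 in 4b, 168 in 5, 312 in 1, 2897 in 3 and 4184 in 2R. Library 4b lay just above 4a, while 2R and 3 lay far above all others. Its mature sequence from RefSeq (GRCm38.p6, chr9:110281353-110281371, plus strand) is given with the seed, bases 2 to 8, in capitals:
mmu-miR-6236: gCCGUCGCcggcagucagg

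Some genes of these classes carry sequence of the RNAs that were set aside. Gm24245 and Gm24270, both annotated as miRNA, contain the whole of Gm23935, and 42 of the 56 bases of Gm25911 lie in 18-base runs found in it. The sequences are given for comparison, with capitals for the bases of Gm25911 (chr1:167340369-167340424, minus strand) that lie in 18-base runs found in Gm23935:
Gm23935: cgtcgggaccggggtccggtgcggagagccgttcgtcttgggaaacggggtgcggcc
Gm25911: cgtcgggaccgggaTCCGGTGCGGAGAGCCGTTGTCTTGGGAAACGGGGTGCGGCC

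Gm25911 stood at 0.300, 0.533 and 1.22 CPM in 6, 2L and 4a and at 5.15 to 340 CPM in the high-share libraries. Of the 16017 genes tested, 16 shared 10% or more of their 18-base words with a mitochondrial RNA, Gm26917, Gm42418 or Gm23935. They included Gm20594, a gene annotated as protein-coding that shares 20.8% of its words with mitochondrial RNA and stood at 0.120 to 0.637 CPM against 3.29 to 16.4 CPM, and CT010467.1 of the rRNA class. These 16 supplied 6 of the 802 genes higher in all 5 and 0 of the 593 lower in all 5, and their levels cannot be told apart from those of the excluded RNAs.

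Nuclear-encoded subunits of the respiratory chain went the other way. Of 80 genes, all of which passed the filter, 73 had a negative log2 difference, with a median of -0.50 beside 0.02 over all genes, and 17 were lower in all 5 high-share libraries (21.3% beside 3.7%), none higher. At an unadjusted p under 0.05 there were 27 lower (33.8% beside 3.96%). After adjustment edgeR called 0, while DESeq2 called 3 lower (3.75% beside 0.337% of all genes). Protein-coding genes of 500 to 1000 and of 1000 to 2000 exonic bases also had negative medians, -0.40 and -0.22. Those of 300 to 500 bases had a median of 0.34. The part of transcript length in the differences of the respiratory chain genes was not tested. As a share of the remaining counts the group took 0.681% in 2L, 0.871% in 4a and 0.936% in 6 against 0.517% to 0.739% in the high-share libraries; 2L lay within the high-share range (p = 0.0714, exact permutation test, two-sided).

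By complex, the genes lower in all 5 were 9 of 37 in complex I (NADH dehydrogenase), 1 of 4 in complex II (succinate dehydrogenase), 2 of 9 in complex III, 1 of 14 in complex IV (cytochrome c oxidase) and 4 of 16 in complex V (ATP synthase). Sdhb, the iron-sulfur subunit of succinate dehydrogenase, stood at 99.6, 100.01 and 121 CPM in 2L, 4a and 6. In the high-share libraries it stood at 50.01 CPM in 4b, 55.8 in 1, 56.8 in 3, 57.0 in 2R and 58.3 in 5. Both classes were tight, and the log2 difference was -0.94 ± 0.17 (SE; unadjusted p = 0.000474, edgeR). The other subunits of that complex, Sdha, Sdhc and Sdhd, overlapped, with log2 differences of -0.51, -0.57 and -0.55.

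Of the 4 most abundant members, 1 separated. Atp5b, the catalytic beta subunit of ATP synthase, stood at 1001 CPM in 2L, 1122 in 4a and 1554 in 6 and at 504 CPM in 3, 571 in 5, 777 in 4b, 823 in 2R and 920 in 1. Atp5a1, its alpha subunit, stood at 628 to 783 CPM against 367 to 640 CPM, with 4a inside the high-share range. Cox4i1 of cytochrome c oxidase stood at 433 and 505 CPM in 4a and 6, above every high-share library (234 to 273 CPM), but at 256 CPM in 2L. Uqcrh of complex III had the same order, with 273 and 299 CPM in 4a and 6, 152 to 200.3 CPM in the high-share libraries and only 119 CPM in 2L. Cox6a2, the heart and skeletal muscle form of a cytochrome c oxidase subunit, stood at 13.0 CPM in 2L and at 0.747 CPM or less in the other 7 libraries.

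Further members that separated were chosen after their values were seen. Atp5j2, an ATP synthase membrane subunit, stood at 25.6, 41.4 and 45.8 CPM against 9.67 to 19.3 CPM, the largest difference among the 17, -1.27 ± 0.30 on the log2 scale (SE). Ndufb5, an accessory subunit of complex I, stood at 73.0, 105 and 117 CPM against 57.9 to 64.4 CPM. Uqcrc1, a core protein of complex III, stood at 142, 150.2 and 158 CPM against 67.2 to 122 CPM. The other 12 that separated, besides Sdhb and Atp5b, had log2 differences of -0.42 to -0.97.

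The pairs of libraries with a shared title number did not both show this order. In 4b, 77 of 80 genes were below 4a, with a median log2 ratio of -0.70. Between 2R and 2L the genes were evenly divided, 40 above and 40 below, with a median log2 ratio of 0.01. Without library 2L the count lower in all 5 was 39 (48.8% beside 8.74%), with 8 of 14 for complex IV, 4 of 9 for complex III and 18 of 37 for complex I (57.1%, 44.4% and 48.6%), and it was 17 to 24 with any other library left out; with no TMM factors it was 12 (15% beside 2.27%). Library 2L is also the library with the highest level of skeletal muscle genes, and the part of these in its respiratory chain values was not tested.

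**Figure D4:**
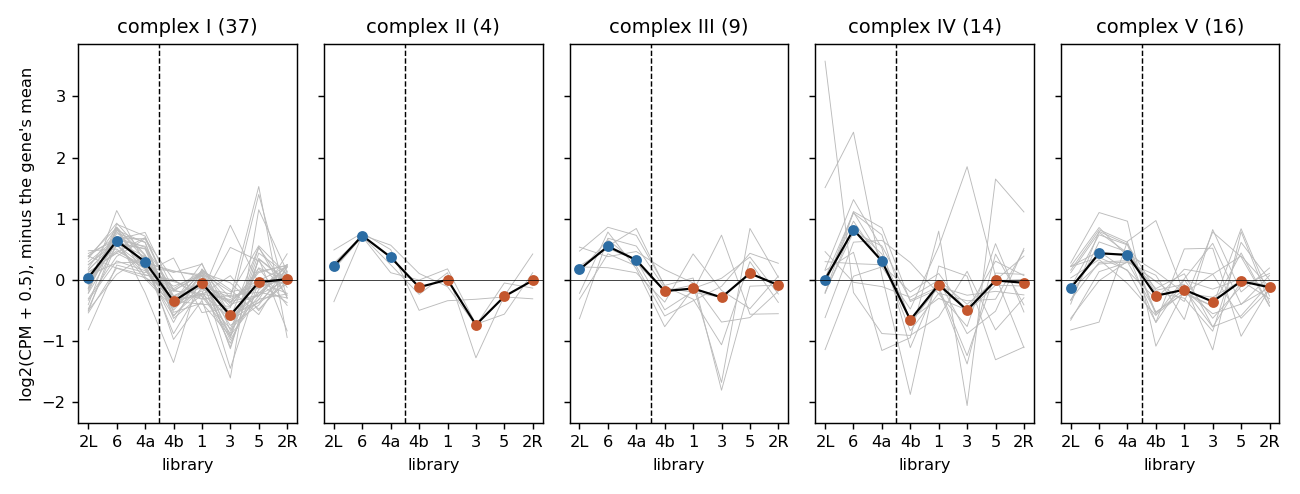
log2(CPM + 0.5) minus the gene's mean over the 8 libraries for nuclear-encoded respiratory chain genes, 1 panel per complex with its number of genes; gray lines are genes, points and the black line are medians, blue for the libraries under 5% and orange for the others. Medians are highest in library 6 in all 5 panels, and the 2L median lies close to the orange points in complexes I, IV and V.

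Other nuclear genes of mitochondrial function differed by list. Of 75 tested mitochondrial ribosomal protein genes, which bind the RNAs that define the split, 60 had negative differences (median -0.32) and 5 were lower in all 5 (6.67%), Mrpl10, Mrpl21, Mrps11, Mrps17 and Mrps23, or 28 without 2L (37.3% beside 8.74%). With another library left out the count was 5 (without 4b or 6), 8 (without 1 or 2R), 10 (without 4a or 5) or 11 (without 3), or 6.67% to 14.7% beside 4.67% to 7.69% of all genes. Mrpl24, the most abundant member, stood at 47.6 to 64.0 CPM and at 56.3 to 68.7 CPM, and Mrpl13 at 51.3 to 74.3 CPM and at 26.9 to 57.6 CPM. Both overlapped. Of 47 tested factors for transcription, processing and assembly of mitochondrial ribosomal RNA, 2 were higher and 1 lower in all 5 (4.26% and 2.13%), and the median was -0.07. Without 2L these were 4 and 7 (8.51% and 14.9% beside 8.55% and 8.74%), and without 2R 5 and 2 (10.6% and 4.26% beside 7.37% and 6.98%). Tfam, Polrmt and Pnpt1 below were chosen after their values were seen. Tfam, which packages the mitochondrial genome and starts its transcription, stood at 31.9 to 41.1 CPM and at 31.2 to 38.0 CPM. Polrmt, the mitochondrial RNA polymerase, stood at 11.1 to 16.3 CPM and at 11.9 to 47.1 CPM. Mettl17, a factor of the small mitochondrial ribosomal subunit, stood at 8.32 to 9.84 CPM against 10.8 to 36.6 CPM, and Pnpt1, a mitochondrial RNA-degrading enzyme, at 46.7 to 58.2 CPM against 19.4 to 43.3 CPM. Among 18 genes of mitochondrial DNA maintenance 4 were higher and 3 lower in all 5 (22.2% beside 5.01% and 16.7% beside 3.7%), among them Dna2, a nuclease and helicase, at 5.82 to 8.57 CPM against 11.2 to 44.8 CPM, and Slc25a4, the muscle type ADP/ATP carrier, at 382 to 472 CPM against 240.4 to 367 CPM. Without 4a, 5 were lower (27.8% beside 7.69%). With thinned counts or with no TMM factors 1 was lower (5.56% beside 3.07% and 2.27%). In both of these settings 4 were higher (22.2% beside 4.22% and 5.83%).

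Cytosolic ribosomal protein genes had 9 of 80 tested members higher in all 5 (11.3%), 53 positive differences and a median of 0.21. Without 4a there were 24 higher in all 5 (30% beside 9.53%), and with thinned counts 6 (7.5% beside 4.22%). The pairs differed: 74 of 80 were higher in 2R than in 2L, and 24 of 80 were higher in 4b than in 4a. The most abundant members overlapped: Rpl4 stood at 564 to 700.1 CPM and 511 to 1229 CPM, and Rps3 at 514 to 926 CPM and 422 to 714 CPM. None of the 54 tested replication-dependent histone genes separated. In a list of RNA decay factors 4 of 20 were higher in all 5 (20%): Pan2, Upf3b and Smg6, of deadenylation and nonsense-mediated decay, and the nuclease gene Dffb. Upf3b stood at 8.05, 9.90 and 11.7 CPM in the low-share libraries against 15.02 to 36.6 CPM, while Xrn1, the main cytoplasmic exonuclease, overlapped at 123.05 to 144 CPM and 94.9 to 184 CPM. Library 3 was highest for Upf3b and lowest for Xrn1.

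Among protein-coding genes the longest stood higher in the high-share libraries slightly more often, and among other classes the shortest did. For 14098 protein-coding genes, the slope of gene-centred log2 CPM on log2 exonic length was -0.07 ± 0.0044 (SD, n = 3) in the low-share libraries. The high-share slopes were 0.10 in 3, 0.11 in 4b, 0.05 in 1, 0.02 in 5 and -0.06 in 2R, a mean of 0.04 ± 0.0705 (SD, n = 5). The slopes did not overlap, though 2R lay next to the low-share libraries (p = 0.0357, the smallest possible in the two-sided exact permutation test; 0.143 adjusted over 4 gene properties). With a mean of at least 10 CPM, a prior count of 0.5 or thinned counts the slopes overlapped (each p = 0.0714, exact permutation test). For genomic span (p = 0.357), number of exons (p = 0.143) and GC content (p = 0.464) the exact permutation test gave larger p-values. Of 35 protein-coding genes of 300 to 500 exonic bases, 1 was higher and 0 lower in all 5, with a median log2 difference of 0.34. Of 235 protein-coding genes of 500 to 1000 exonic bases, 4 were higher and 11 lower in all 5 (1.70% and 4.68%), and of 2586 genes of 8000 bases or more, 162 were higher and 67 lower (6.26% and 2.59%).

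Among genes of other classes, those under 300 bases stood apart: 57 of 125 were higher in all 5 (45.6%), 0 were lower, and the median log2 difference was 1.82. With the filter on the low-share libraries alone, 35 of 77 were higher in all 5 (45.5% beside 4.58%), with a median of 1.31. In the longer bins of these classes 5.29% to 14.7% were higher in all 5. With all RNA classes in 1 fit the difference in slope was -0.00310 (p = 0.929, exact permutation test).

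**Figure D5:**
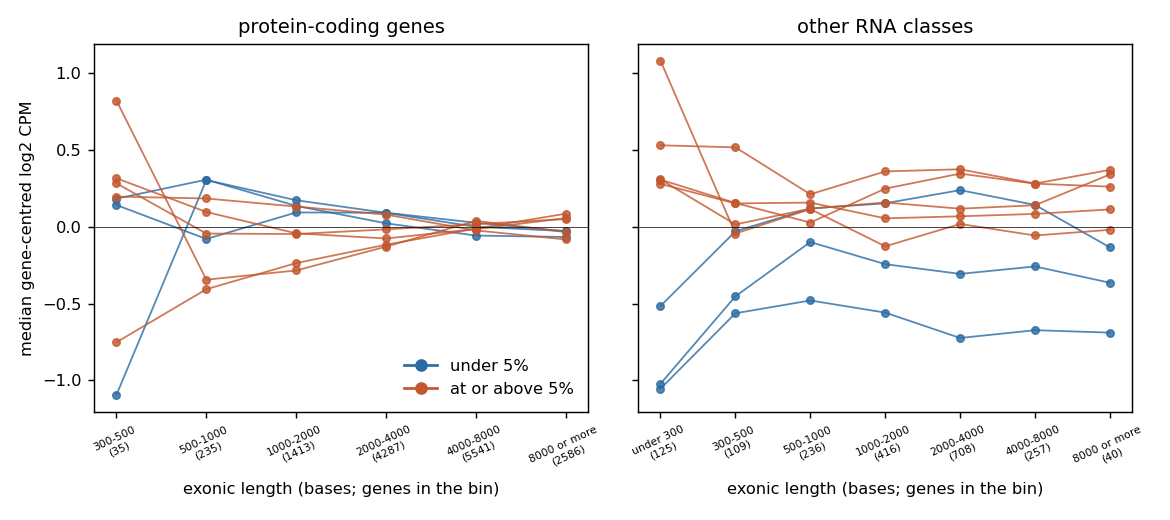
Median gene-centred log2 CPM by bin of exonic length (bases, with the number of genes in parentheses) for protein-coding genes and for all other RNA classes, 1 line per library, blue for the libraries under 5% and orange for the others. Among other RNA classes under 300 bases the orange lines lie between 0.28 and 1.08 and the blue lines between -0.52 and -1.05; 2L and 6 stay the lowest lines in every bin of that panel, while 4a lies among the orange lines from 300 to 8000 bases.

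Protein-coding genes were also divided by the number of their annotated transcripts with a retained intron, a division made after the first values had been seen. Of 6084 genes with none, 190 were higher in all 5 (3.12%), and of 1705 genes with 4 or more, 159 were (9.33%), while 4.04% and 3.11% were lower in all 5. The median log2 differences were -0.09 and 0.12. In each of 4 bins of mean CPM the share higher in all 5 was larger for genes with 4 or more than for genes with none, 7.64% beside 3.06% in the lowest bin and 6.49% beside 2.93% in the highest. Gigyf1, a translation repressor, stood at 22.0, 24.2 and 24.8 CPM in the low-share libraries and at 61.9 to 152 CPM in the high-share libraries, and Ccdc9, an exon junction complex partner, at 14.3 to 24.7 CPM and at 40.5 to 82.9 CPM. Both separated fully.

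Markers of macrophages were lower in the high-share libraries. All 14 tested had negative differences (median -1.26), 5 were lower in all 5 (35.7% beside 3.7%), and DESeq2 called 3 lower (21.4% beside 0.337%). Without 2R 9 were lower in all the others (64.3% beside 6.98%) and without 4a 8 were (57.1% beside 7.69%). Their summed level was 2758 to 6392 CPM in the low-share and 520 to 2192 CPM in the high-share libraries and did not overlap. In bulk tumors, fewer cells of a type and less RNA per cell cannot be told apart. C1qa, a chain of complement C1q, stood at 321, 507 and 648 CPM in 4a, 2L and 6 and at 96.4 CPM in 3, 149 in 1, 152 in 5, 162 in 4b and 275 in 2R. Lyz2, lysozyme, stood at 408, 460.3 and 1309 CPM in 2L, 4a and 6 and at 65.7 to 405 CPM in the high-share libraries, where 5 lay just below 2L. Apoe, a lipid carrier abundant in macrophages, stood at 1424, 2134 and 3748 CPM against 289 to 764 CPM, a log2 difference of -2.14 ± 0.43 (SE), and Cd86, a costimulatory receptor, at 19.2 to 34.1 CPM against 6.82 to 11.95 CPM. The part of these cells in the differences of other genes was not tested.

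Interferon response genes had 19 of 20 negative differences (median -1.06), but 1 was lower in all 5 (5%), and 14 were without library 6 (70% beside 5.13%). At an unadjusted p under 0.05 (edgeR) 8 were lower (40% beside 3.96%), while after adjustment edgeR and DESeq2 called 0. Of the 20, 0 were higher in 2R than in 2L and 3 were higher in 4b than in 4a. Of 13 endothelial genes, 12 pericyte and smooth muscle genes and 8 keratinocyte genes, 0 separated, though 3 pericyte and smooth muscle genes were lower in all 5 without library 6 (25% beside 5.13%). Skeletal muscle genes had 20 of 20 negative differences, 1 of them lower in all 5 (Pvalb): their summed level was 33393 CPM in 2L and 272 CPM in the lowest low-share library, beside 114 to 10388 CPM in the high-share libraries. Red cell genes had 7 of 7 positive differences and 2 higher in all 5 (28.6% beside 5.01%), Alas2 and Hbb-bt. Without 4b there were 6 (85.7% beside 6.78%). Only 5 of the 7 passed the filter on the low-share libraries alone, where 2 were higher in all 5 (40% beside 4.58%). Relative to each gene's mean, the median in 4b (log2 -1.94) lay within the low-share range of -2.82 to -1.59. Library 5 lay far above: Hbb-bs, a beta globin, stood at 15884 CPM in 5 and at 17.0 to 448 CPM in the other 7. Of 20 proliferation genes and 20 hypoxia genes 0 separated, though 17 proliferation genes had positive differences (median 0.52) and 10 were higher in all 5 without 4a (50% beside 9.53%). Of 12 neuroendocrine genes 10 had positive differences (median 1.38) and 0 separated. Of 7 neutrophil and mast cell genes 6 had positive differences (median 2.64), 0 were higher and 1 was lower in all 5, and without 4a 2 were higher (28.6% beside 9.53%); only 3 of them passed the filter on the low-share libraries alone.

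Among the genes of smallest p with lower levels, several belong to no list above. Of 15 genes of the neural crest and Schwann cell list, 2 were lower in all 5 (13.3% beside 3.7%), Cdh19 and S100b. The list as a whole was divided, with 7 positive and 8 negative differences and a median of -0.04. Cdh19, a cell adhesion gene expressed in Schwann cell precursors, stood at 84.7, 107 and 716 CPM in 2L, 4a and 6. It stood at 7.63 to 19.998 CPM in the high-share libraries, a log2 difference of -4.45 ± 0.72 (SE, unadjusted p = 0.000196, edgeR). Atox1, a copper chaperone, stood at 104 to 143 CPM against 35.1 to 68.1 CPM, Cmtm7 at 42.02 to 126 CPM against 19.0 to 35.8 CPM, Ak1 (adenylate kinase) at 75.1 to 112 CPM against 26.9 to 51.3 CPM, and Ogfod3 at 27.1 to 69.5 CPM against 10.5 to 24.8 CPM. Gng13, Fam178b and Lrfn2 were also lower in all 5, with library 6 far above the others: 86.6, 19.8 and 19.5 CPM there against at most 12.4, 3.95 and 1.97 CPM. Over the 8 libraries, the log2 levels that ran most against the log2 share were those of C1qtnf1 (Pearson r = -0.973), Extl2 (-0.957), Idh3a (-0.956), Dctn2 (-0.954) and Tgfbr1 (-0.952), given as a description.

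Idh3a, the catalytic subunit of mitochondrial isocitrate dehydrogenase, stood at 69.2, 69.9 and 81.4 CPM in 2L, 4a and 6 and at 45.2 to 51.4 CPM in the high-share libraries. C1qtnf1 stood at 61.7, 113 and 149 CPM against 31.4 to 56.5 CPM, and the TGF-beta receptor gene Tgfbr1 at 186, 252 and 310 CPM against 82.0 to 161 CPM. Of the genes that ran with the share besides those with 7SL sequence, Sec61a2, a subunit of the endoplasmic reticulum translocon, stood at 22.7, 25.005 and 31.1 CPM against 38.6 to 56.6 CPM, and Spred3 at 5.40 to 9.61 CPM against 14.6 to 16.6 CPM. The differences of these 5 genes in log2 were -0.61, -1.39, -1.14, 0.87 and 1.11 in that order, and the classes did not overlap in any of them.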

How the data were processed

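Per the file headers and values, the deposited table held raw counts per Ensembl gene for 8 libraries (49671 genes, 99.5% of them named with GENCODE M21). Build mm10, STAR 2.7.5a, cutadapt, RSEM and featureCounts are named, without roles, per the submitters' processing notes; which tool made the counts, and how strand and multiple matches were handled, is not given in the sources used here. RNA from a gene and its antisense partner therefore cannot be told apart.

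Mitochondrial genes, Gm26917, Gm42418 and Gm23935 (40 genes) were removed before library sizes, TMM factors and tests. Genes with a mean of at least 1 CPM were tested with edgeR 4.0.16 (quasi-likelihood, Benjamini-Hochberg, R 4.3.3), 3 against 5 libraries with no covariate. Class shares and slopes were compared by two-sided exact permutation tests over 56 assignments. Figures were drawn with matplotlib 3.10.9. Log2 CPM had a prior count of 2. On simulated data for 5 against 3 libraries with gene-wise spread, edgeR recovered 0, 8, 26 and 40 of 50 genes changed 2-, 4-, 8- and 16-fold (15374 genes).

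The libraries, gene lists and tests were chosen with earlier results of these data known. Genes named by rule were the 4 most abundant and 2 most different members of each list, the 12 of smallest p in each direction, the 3 most abundant of each RNA class, and the 5 most correlated with the share in each direction at a mean of at least 10 CPM. Alternatives were other scalings, filters, thinned counts, a replicate block, DESeq2 1.42.0 and leaving out each library; counts of list members under these, the shared-sequence counts and the retained-intron division were added after seeing the data. Sequences of some genes named here are not reported.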

Additional observations from a re-analysis of the deposited data

Results flagged for a closer look

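In 14 of 60 measures checked over the 8 libraries, 1 library stood far from the others by Dixon's ratio. The ratio's chance rate of about 1 in 20 holds for unselected, normally distributed values. These measures overlap in part and some genes were chosen for a small p, so the number flagged is a description. Library 3, the thinnest, was the outlying one in 10 of the 14. Its antisense share was 0.293% of the remaining counts (next highest library 0.166%), processed pseudogenes 0.312% (0.168%), rRNA-annotated genes 0.418% (0.0554%), small nucleolar RNAs 0.223% (0.113%) and unprocessed pseudogenes 0.0874% (0.0164%). Its slope on GC content was 0.0603 (next 0.0135). Snord15a reached 170.3 CPM there against 44.3 CPM in the next library. Of all counts, mitochondrial messenger RNA took 18.7% in library 3 (next 6.01%), Gm26917 with Gm42418 27.6% (next 8.66%) and Gm23935 12.3% (next 5.65%). Library 2R stood apart in immunoglobulin constant region genes, at 0.0876% against 0.0240%. Library 6 stood apart for Gng13 at 86.6 CPM, Fam178b at 19.8 CPM and Lrfn2 at 19.5 CPM, with next values of 12.4, 3.95 and 1.97 CPM.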

How the results depend on the processing

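edgeR called 0 genes under every scaling, filter and library left out (a range of 0 to 0), and also with the shared title numbers as a replicate block (smallest adjusted p = 0.818, 702 genes at an unadjusted p under 0.05), while DESeq2 called 215; the cause was not tested. No class share passed its adjusted threshold under any setting. With 1 library left out, the smallest possible p of the exact permutation test is 0.0571 or 0.0952. No class could then pass, so leaving out a library says nothing about the class shares. Genes higher and lower in all 5 numbered 802 and 593, but 934 and 363 with no TMM factors (median log2 0.14), 116 and 2584 with all counts as library size (median log2 -0.49), 714 and 896 with a filter of 10 counts only, and 866 to 1533 and 810 to 1401 with 1 library left out. With all counts as the denominator, 8 class differences changed sign: antisense -0.00134, bidirectional promoter -0.00106, processed pseudogene -0.0318, processed transcript -0.0234, sense intronic -0.00134, transcribed unprocessed pseudogene -0.00574, histones -0.0294 and ribosomal proteins -0.183 percentage points. Transcribed unprocessed pseudogenes stood at -0.00187 under the replicate block, and polymorphic pseudogenes at -0.00495 to 0.00284 with 1 library left out. The difference in length slope was 0.134 with a mean of at least 10 CPM, 0.119 with a prior count of 0.5 and 0.0972 with thinned counts (each p = 0.0714, exact permutation test). It was 0.0194 for genomic span (p = 0.357, exact permutation test), -0.00310 over all RNA classes (p = 0.929, exact permutation test) and 0.0952 to 0.139 with 1 library left out, where the smallest possible p is 0.0571 or 0.0952. Depth limits library 3, where 3 counts equal 2.24 CPM.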
